A study of Mus musculus with 12 samples.

Results

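Myf6, Myf5, Myod1, Myog, Pax7, Mymk, Myh3, Myh8 and Mef2c are genes of skeletal muscle formation, and their RNA was followed in mouse neuroblastomas treated with high intensity focused ultrasound (HIFU). They were chosen by name, each through the probe set annotated to its symbol, and 9 of 9 were found among the 19505 genes with a named probe set. Each was measured by 1 of the 22206 probe sets of the array. The values are log2 signals from Affymetrix Clariom S arrays, 1 array for each of 12 frozen tumors. All 12 tumors, controls included, arose in A/J mice, an inbred strain, that had been inoculated with neuroblastoma cells. Not given in the sources used here are the line of those cells, the site of inoculation and the age of the mice. The control group held 3 untreated tumors, and the groups HIFU_24h, HIFU_48h and HIFU_72h held 3 treated tumors each. HIFU breaks up tissue with focused sound, and the series names mechanical fractionation. The labels give the times as 24, 48 and 72 h in wording that does not settle the interval, so reading them as hours after treatment is an assumption. The labels do not say whether tumors of 1 group came from separate mice, so the p-values cover the spread among these arrays, and part of it may be technical.

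In adult muscle, satellite cells are the resident stem cells of the fibers and are marked by the transcription factor Pax7. After injury they divide and switch on the myogenic regulatory factors Myf5 and Myod1, then Myog as they differentiate. They fuse through the membrane protein encoded by Mymk (myomaker), and the new fibers carry the embryonic and perinatal myosin heavy chains encoded by Myh3 and Myh8 for a time. Myf6 (also called MRF4) is the factor of this family that stays high in mature fibers, and Mef2c is a partner factor that also works in endothelial, myeloid, B and nerve cells. Pax7, Myf5, Myod1, Myog, Mymk and Myh3 are treated below as the 6 regeneration genes, and they are set against Myf6.

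Myogenic regulatory factors bind short E-box motifs, spelled CANNTG, which reads the same on both strands. The promoters of Myog and Myh3 are shown because these genes are standard readouts of differentiation and of new fibers. The sequences are RefSeq's for assembly GRCm38.p6, from 250 bases before to 50 bases after the gene start, with E-boxes in capitals. They lie at chr1:134289754-134290053 and chr11:67078050-67078349, both on the plus strand.
Myog: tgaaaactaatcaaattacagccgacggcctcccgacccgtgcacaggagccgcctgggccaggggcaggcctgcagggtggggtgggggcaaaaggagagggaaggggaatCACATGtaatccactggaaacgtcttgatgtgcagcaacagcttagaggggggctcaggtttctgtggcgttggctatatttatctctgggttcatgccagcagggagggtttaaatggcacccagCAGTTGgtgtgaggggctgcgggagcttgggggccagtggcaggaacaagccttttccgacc
Myh3: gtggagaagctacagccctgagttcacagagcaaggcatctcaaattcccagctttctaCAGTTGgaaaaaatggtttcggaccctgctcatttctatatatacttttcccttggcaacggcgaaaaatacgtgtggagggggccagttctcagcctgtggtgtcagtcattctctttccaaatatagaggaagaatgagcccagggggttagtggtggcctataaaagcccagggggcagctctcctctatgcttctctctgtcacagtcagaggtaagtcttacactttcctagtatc
The Myog promoter held E-boxes starting 138 and 12 bases before the gene start, and the Myh3 promoter held 1, starting 191 bases before it. A match to CANNTG occurred in 72.3% of 32851 mouse promoters of this length, so a match is common and marks no site in use. Promoters were found for 6 of the 9 genes. CAGCTG, a form of the same motif, was in 16.3% of all promoters and in neither promoter shown. The MEF2 consensus was spelled YTAWWWWTAR (Y: C or T, W: A or T, R: A or G) and searched on both strands. It was in 3.19% of all promoters and in that of Myh8, 99 bases before the gene start. This strict spelling misses near matches, such as ctatatttat in the Myog promoter, which differs from it in the last base alone.

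Neuroblastoma markers stood above the low-signal reference for 10 to 11 of 11 genes on every array. That reference was, on each array, the 95th percentile of 1414 probe sets of olfactory and vomeronasal receptor genes, and it lay between 4.12 and 4.89. Skeletal muscle RNA was present in the control tumors too: the fast myosin gene Myh4 read 11.98, 15.42 and 17.95 there, above that reference. The median of 30 mature fiber genes, set against the control mean, was -1.13, -0.55 and 1.73 in the controls. It was 1.97 to 5.23 at 24 h, 2.73 to 4.08 at 48 h and 2.13 to 5.51 at 72 h, so every HIFU array exceeded every control. In tissue of mixed cells, a change in the number of muscle fibers or satellite cells and a change in RNA per cell cannot be told apart. Cardiac muscle markers were above the reference for 0 to 2 of 8 genes, with a median of -0.01 to 0.24 above the control mean on the HIFU arrays and -0.07 to 0.11 on the controls. Smooth muscle and pericyte markers were above it for 6 to 9 of 10, with a median of -0.03 to 0.97 on the HIFU arrays and -0.03 to 0.24 on the controls. The neuroblastoma marker median was -1.32 to 1.18 on the HIFU arrays and -0.95 to 1.14 on the controls. The part of these cells in the muscle gene signals was not tested.

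**Figure D1:**
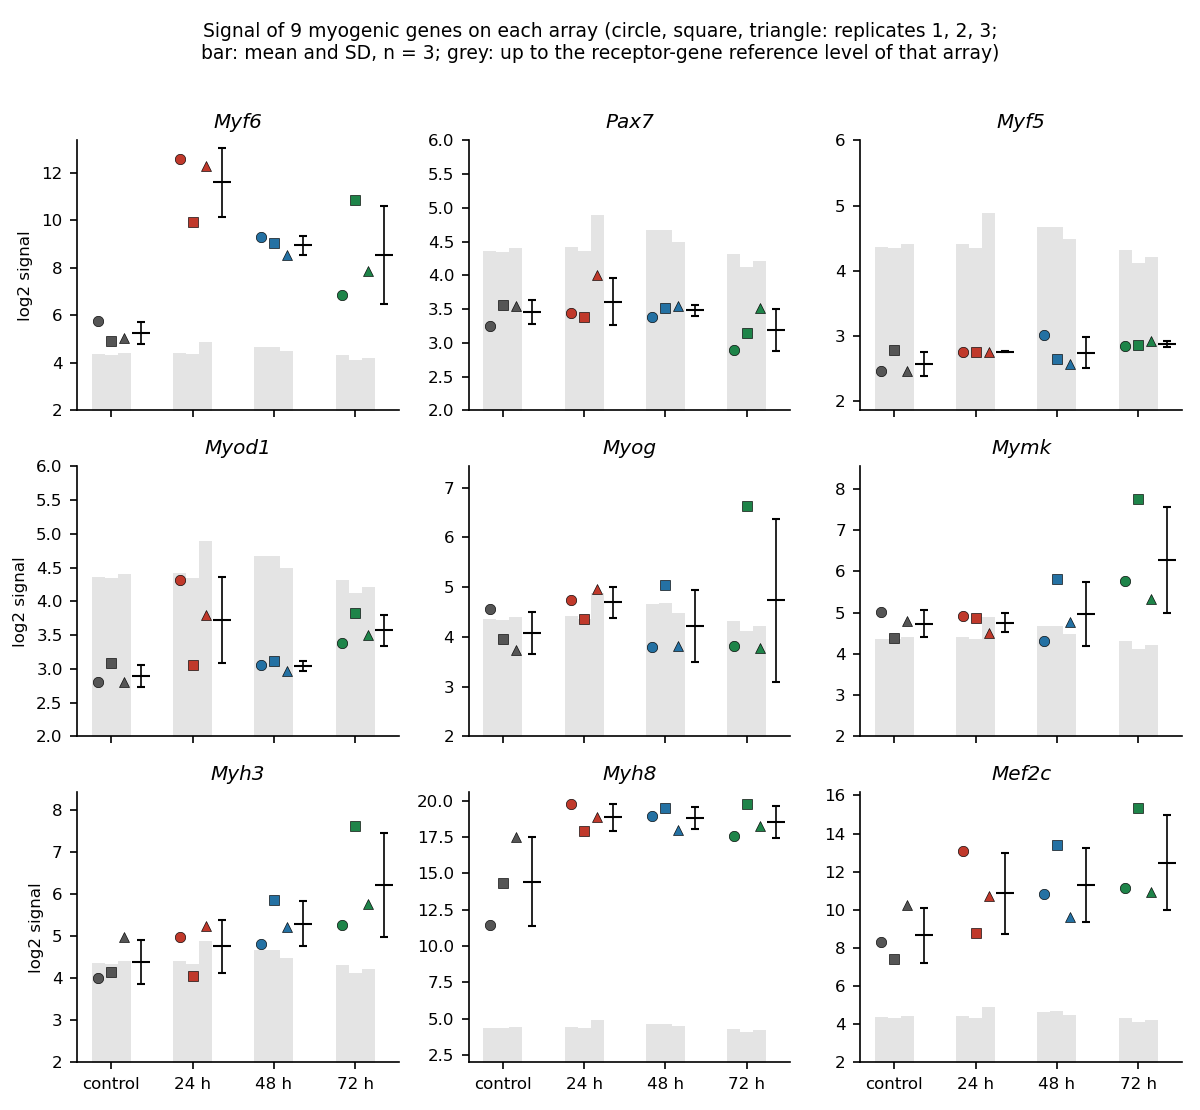
Log2 signal of the 9 genes on each of the 12 arrays, by group, with 1 symbol per replicate number, the mean and the SD (n = 3). Grey columns reach up to the low-signal reference of the same array. Myf6 lies highest at 24 h, whereas Pax7, Myf5 and Myod1 lie within the grey on every array.

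Myf6 was the one gene of the 9 that passed the test against control, and it rose at 24 h. Its signals were 5.78, 4.94 and 5.03 in the controls, 12.57, 9.93 and 12.29 at 24 h, 9.29, 9.05 and 8.52 at 48 h and 6.87, 10.87 and 7.88 at 72 h. Each HIFU array lay above all 3 controls, and 2 of the 24 h arrays lay above every other array. Mean signals were 5.25 ± 0.461 (SD, n = 3) in controls, 11.6 ± 1.45 at 24 h, 8.95 ± 0.394 at 48 h and 8.54 ± 2.08 at 72 h. The rise at 24 h was 6.35 ± 0.91 on the log2 scale (SE, 95% confidence interval 4.36 to 8.34), or 81.4-fold, with adjusted p = 0.039 (limma, Benjamini-Hochberg over all probe sets). Among the 9 genes it was the single call at 24 h, where 0.054% of all probe sets were called. Ordered by their difference at 24 h, Myf6 stood at place 4 of 19505 named genes.

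At the later times the Myf6 difference from control was smaller and did not pass the threshold. It was 3.70 at 48 h (95% confidence interval 1.71 to 5.69, adjusted p = 0.202) and 3.29 at 72 h (1.30 to 5.28, adjusted p = 0.29). The share of probe sets called was 0.0045% at 48 h and 0.00901% at 72 h, so these comparisons called almost no gene. None of the 9 genes was called at 48 or 72 h, where 2 and 6 of them had an unadjusted limma p under 0.05, beside 13.3% and 11.2% of all probe sets. The mean of the 3 HIFU groups lay 4.45 ± 0.74 (SE) above control, with adjusted p = 0.0967, in a comparison that called 0.018% of probe sets. Myf6 at 48 h lay below 24 h by a log2 difference of -2.64 (95% confidence interval -4.63 to -0.65, limma adjusted p = 0.999) and the arrays of these times did not overlap, which held for 3.7% of probe sets. At 72 h it lay -3.06 from the 24 h mean (adjusted p = 0.78), and at 72 h -0.41 from the 48 h mean (adjusted p = 0.96), with overlapping arrays in both. No probe set was called between times (0% in each of the 3 limma comparisons), although 863 to 1390 had an unadjusted p under 0.05. The 72 h spread came mostly from 1 array, replicate 2 at 10.87.

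The Myf6 call at 24 h depended on single arrays. It was lost without control replicate 1 (6.61, adjusted p = 0.168), control replicate 2 (6.19, 0.198), HIFU_24h replicate 1 (5.86, 0.268), HIFU_24h replicate 3 (6.0, 0.279), HIFU_48h replicate 1 (0.0799), replicate 2 (0.0788) or replicate 3 (0.0904), or HIFU_72h replicate 3 (0.0758). It was kept without each of the other 4 arrays, and over all alternatives the adjusted p ran from 0.000551 to 0.971, with the difference above 0 in each.

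Myf6 was also compared at like levels of fiber RNA. The fiber medians of control replicate 3, HIFU_24h replicate 2 and HIFU_72h replicate 1 were 1.73, 1.97 and 2.13. Myf6 on these arrays was 5.03, 9.93 and 6.87, so tumors with similar fiber signal differed widely in Myf6. With the fiber median as a covariate for all arrays, the Myf6 difference at 24 h was 4.50 ± 1.00 (SE), with an unadjusted limma p of 0.000872 and an adjusted p of 0.971. The same covariate brought the Myf6 difference to 1.83 at 48 h and 1.41 at 72 h (limma adjusted p = 0.999 and 1). These 3 arrays were picked after their values were seen, and they carry no test. All HIFU arrays had a higher fiber median than all controls. Differences from control with this covariate, here and below, thus reach beyond fiber levels that HIFU and control arrays share. With the covariate 0% of probe sets were called at 24 and 48 h and 0.0045% at 72 h.

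**Figure D2:**
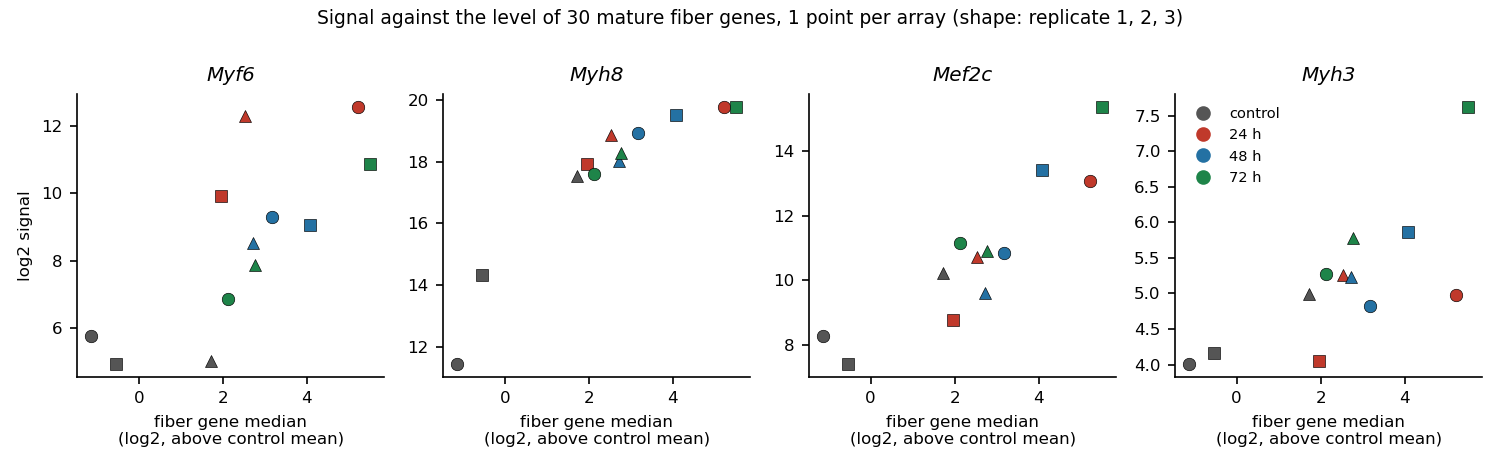
Log2 signal of Myf6, Myh8, Mef2c and Myh3 (vertical axis) against the median of 30 mature fiber genes relative to the control mean (horizontal axis, log2), with 1 symbol per array. Myh8 follows the fiber median closely, while Myf6 at 24 h lies above arrays of other groups with a like fiber median.

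The genes whose pattern over the 12 arrays lay nearest to that of Myf6 were Ankrd1, Mustn1, Rrad, Hspb7 and Retreg1. Likeness was the root mean square difference of centred log2 signals, which was 0.69 for Ankrd1, 0.83 for Mustn1, 0.88 for Rrad, 0.92 for Hspb7 and 0.95 for Retreg1, against an SD of 2.60 for Myf6 itself. Ankrd1 encodes a stretch-responsive ankyrin repeat protein of striated muscle, and its signals were 11.10, 9.05 and 9.01 in controls and 16.71, 12.86 and 16.55 at 24 h. Mustn1 encodes a small nuclear protein of the musculoskeletal system, and its range was 10.82 to 11.30 on control arrays against 15.00 to 17.01 at 24 h. At 24 h, the comparison in which Myf6 was called, Retreg1 and Hspb7 were called too. Retreg1, which encodes an autophagy receptor of the endoplasmic reticulum, was 5.64 above control (limma adjusted p = 0.00751), and Hspb7, the gene of a small heat shock protein of striated muscle, was 5.91 above it (adjusted p = 0.039). Both calls turned on single arrays, as that of Myf6 did. The Retreg1 call was lost without control replicate 1 (limma adjusted p = 0.0682) or 2 (0.0836) or HIFU_24h replicate 1 (0.0794) or 3 (0.087), and with the fiber covariate (4.55, adjusted p = 0.317). The Hspb7 call was kept without control replicate 3, HIFU_24h replicate 2 or HIFU_72h replicate 2 and lost without any other 1 array (limma adjusted p from 0.0572 to 0.239), with the replicate block (0.185), with only the groups compared (0.139) and with the fiber covariate (3.75, adjusted p = 0.692). Ankrd1, Mustn1 and Rrad differed at 24 h by 5.65, 5.26 and 5.11 (limma adjusted p = 0.134, 0.0618 and 0.124).

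For the mean of the HIFU groups Retreg1 was the one of the 5 called, by 3.94 with limma adjusted p = 0.0273. That Retreg1 call was lost without control replicate 1 (adjusted p = 0.208), control replicate 2 (0.215), HIFU_24h replicate 1 (0.0753) or replicate 3 (0.109), HIFU_48h replicate 2 (0.061) or HIFU_72h replicate 3 (0.0677). It was also lost with the replicate block (limma adjusted p = 0.149) and with the fiber covariate (2.84, adjusted p = 1). For the other 4 the mean difference lay between 3.32 and 4.61 with adjusted p from 0.0572 to 0.127. Further muscle genes were looked up after their values were seen. Fbxo32 and Trim63, the ubiquitin ligase genes of muscle atrophy, stood at places 9 and 10 in nearness to Myf6, the fast myosin gene Myh1 at place 74, the skeletal actin gene Acta1 at 266 and the fast myosin gene Myh4 at 322.

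Pax7, the marker of satellite cells, did not pass the test at any time. Its signals were 3.25, 3.56 and 3.55 in controls, 3.44, 3.38 and 4.01 at 24 h, 3.38, 3.52 and 3.54 at 48 h and 2.89, 3.15 and 3.51 at 72 h. The groups overlapped at every time. Differences from control were 0.16 at 24 h (95% confidence interval -0.37 to 0.68), 0.03 at 48 h (-0.50 to 0.55) and -0.27 at 72 h (-0.80 to 0.26), with limma adjusted p between 0.741 and 0.972. All 12 signals were below the low-signal reference, so a change in rare Pax7 cells may not have been detectable on these arrays. The sign of the 24 h and 48 h differences changed with the array left out, which gave -0.04 to 0.27 and -0.08 to 0.08.

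Myf5, which is active in satellite cells and early myoblasts, was likewise under the reference on all 12 arrays. It read 2.46, 2.78 and 2.46 in controls, 2.75, 2.76 and 2.76 at 24 h, 3.01, 2.65 and 2.57 at 48 h and 2.84, 2.86 and 2.93 at 72 h. The 72 h arrays lay just above the controls, by 0.31 on average (95% confidence interval -0.12 to 0.74, limma adjusted p = 0.593), and the intervals at the other times also held 0.

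Myod1, the factor that commits activated satellite cells to the myoblast fate, had signals of 2.81, 3.09 and 2.80 in controls, 4.31, 3.05 and 3.80 at 24 h, 3.05, 3.12 and 2.97 at 48 h and 3.38, 3.83 and 3.50 at 72 h. At 24 h 2 arrays were above the controls and replicate 2 was not, at 48 h the arrays overlapped the controls, and at 72 h all 3 lay above them. The differences were 0.82 (95% confidence interval 0.18 to 1.46, limma adjusted p = 0.408), 0.15 (adjusted p = 0.865) and 0.67 (adjusted p = 0.424), and 0.34, -0.34 and 0.18 with the fiber covariate. The 72 h arrays also lay above all 48 h arrays, by 0.52 on average (adjusted p = 0.832), which held for 4.7% of probe sets. No Myod1 signal exceeded the reference, and at such signals a log2 difference understates a change in RNA. The HIFU_24h replicate 2 array, which had the lowest Myod1 of its group, also had the lowest fiber median and the lowest Myf6 at that time. Nearest to the Myod1 pattern were Ms4a8a, Synm, Ifnlr1, Synpo and Rgsl1, with root mean square differences of 0.17 to 0.24 against an SD of 0.47 for Myod1.

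Myog, which drives the step from myoblast to differentiating cell, was above the reference on 6 of 12 arrays, 1 of them a control. Its signals were 4.56, 3.95 and 3.73 in controls, 4.74, 4.37 and 4.97 at 24 h, 3.80, 5.05 and 3.81 at 48 h and 3.81, 6.63 and 3.78 at 72 h. A single array, HIFU_72h replicate 2, stood well above the rest, and the other 2 arrays at 72 h lay within the control range. The differences were 0.61, 0.14 and 0.66 (limma adjusted p = 0.792, 0.946 and 0.78), and without HIFU_72h replicate 2 the 72 h difference was -0.29. With the fiber covariate they turned to -0.38, -0.87 and -0.35 (SE 0.82, 0.83 and 0.83). The arrays overlapped the controls at all 3 times. Myog thus did not pass the test at any time, and the E-boxes of its promoter shown above are a description of the sequence alone.

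Mymk, the gene for the fusion protein myomaker, gave 5.01, 4.39 and 4.81 in controls, 4.91, 4.87 and 4.50 at 24 h, 4.31, 5.81 and 4.78 at 48 h and 5.77, 7.75 and 5.33 at 72 h. The 72 h arrays were all above the controls and those of the earlier times overlapped them. At 24 and 48 h the differences were 0.02 and 0.23 (limma adjusted p = 0.996 and 0.891). At 72 h the difference was 1.55 ± 0.56 (SE, 95% confidence interval 0.33 to 2.77, limma adjusted p = 0.353), 0.81 without HIFU_72h replicate 2 and 0.60 with the fiber covariate. With that covariate the differences at 24 and 48 h turned to -0.91 and -0.72 (SE 0.67 and 0.68). Mymk at 72 h lay 1.52 above 24 h (limma adjusted p = 0.841), with no overlap of the arrays, as was the case for Myh3 and Myf5 and for 4.53% of probe sets.

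Myh3, the embryonic myosin heavy chain of newly formed fibers, had control signals of 4.01, 4.16 and 4.99. It read 4.98, 4.05 and 5.26 at 24 h, 4.82, 5.87 and 5.23 at 48 h and 5.28, 7.63 and 5.78 at 72 h. As with Mymk, the 72 h arrays cleared the controls and the earlier ones did not. The group means stood in the order control, 24, 48 and 72 h, with differences of 0.38, 0.92 and 1.84 (limma adjusted p = 0.857, 0.505 and 0.311). The 72 h difference had an SE of 0.57 and a 95% confidence interval of 0.60 to 3.08, and it was 1.14 without HIFU_72h replicate 2 and 0.41 with the fiber covariate. With that covariate the differences at 24 and 48 h turned to -1.04 and -0.52 (SE 0.51 for each). Neighbouring times did not differ beyond their spread: 48 h lay 0.54 above 24 h (adjusted p = 0.999) and 72 h lay 0.92 above 48 h (adjusted p = 0.843).

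Myh8, the perinatal myosin heavy chain, had control signals far apart from each other. The signals were 11.46, 14.34 and 17.53 in controls, 19.78, 17.94 and 18.87 at 24 h, 18.94, 19.51 and 18.01 at 48 h and 17.59, 19.77 and 18.28 at 72 h. All HIFU arrays were above the controls, but control replicate 3, at 17.53, was close to the lowest of them, at 17.59. The differences were 4.42, 4.38 and 4.10 (95% confidence intervals 1.81 to 7.03, 1.76 to 6.99 and 1.49 to 6.72), with limma adjusted p = 0.287, 0.223 and 0.302. Without control replicate 3, which had the highest fiber median of the controls, Myh8 passed the threshold at each time, with 5.96, 5.92 and 5.65 (limma adjusted p = 0.011, 0.011 and 0.0164). Calls rose in general without that array, to 1.14%, 1.41% and 0.874% of all probe sets, from 0.054%, 0.0045% and 0.00901% with it. With the fiber covariate the differences were 1.12, 1.03 and 0.75. The HIFU signals lie near 19.93, the highest value on any array.

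Among all named genes the pattern nearest to Myh8 was that of Myh4, the fast myosin of mature fibers, with a root mean square difference of 0.31 against an SD of 2.44 for Myh8. Myh4 read 11.98, 15.42 and 17.95 in controls and 18.08 to 19.74 on the HIFU arrays, and the next nearest genes were Pygm, Myl1, Tnni2 and Tnnt3. These neighbours were looked up after the values were seen. Myosin heavy chain genes are near copies of each other, and whether the Myh8 probe set also takes up Myh4 RNA was not tested.

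Mef2c, the partner factor, spanned 8.30, 7.43 and 10.24 in controls, 13.07, 8.79 and 10.71 at 24 h, 10.85, 13.42 and 9.61 at 48 h and 11.15, 15.36 and 10.91 at 72 h. It overlapped the controls at 24 and 48 h and lay above them at 72 h. The differences were 2.20, 2.64 and 3.82 (limma adjusted p = 0.64, 0.439 and 0.364), the last of them 2.37 without HIFU_72h replicate 2. With the fiber covariate the direction turned at every time, to -1.80, -1.42 and -0.24 (SE 0.95, 0.96 and 0.96). Nearest in pattern were Lum, Trim72, Hjv, Abi3bp and Car3, at 0.53 to 0.58 against an SD of 2.26 for Mef2c. Lum and Abi3bp encode matrix proteins of fibroblasts, and muscle expresses Trim72 and, not as the only tissue, Car3. Other cells that express Mef2c were measured beside it. Endothelial markers (8 of 9 above the reference on every array) had a median 0.11 to 1.91 above the control mean on the HIFU arrays and -0.23 to 0.37 on the controls. Macrophage markers were above the reference for 8 to 9 of 9 genes, with a median of -1.64 to 3.04 on the HIFU arrays and -0.53 to 0.51 on the controls. B cell markers were above it for 0 to 3 of 7, with a median of -0.06 to 0.55 on the HIFU arrays and -0.04 to 0.04 on the controls. Their part in the Mef2c signal was not tested.

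**Figure D3:**
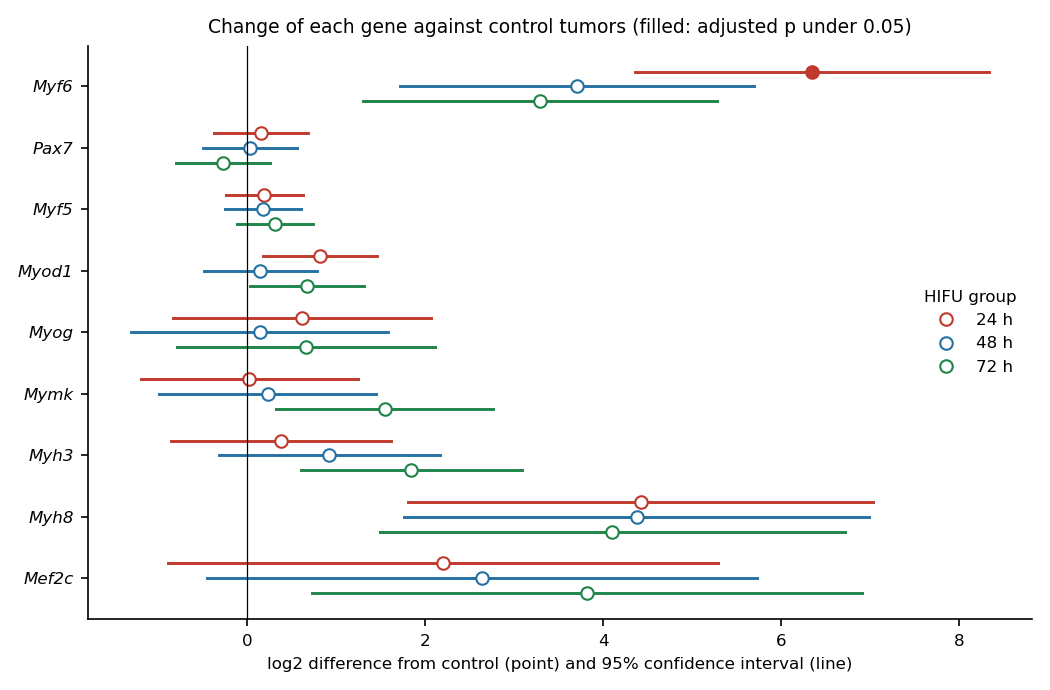
Log2 difference from control (horizontal axis) of the 9 genes at 24, 48 and 72 h, with 95% confidence intervals from limma. The filled point, Myf6 at 24 h, is the only one with an adjusted p under 0.05, and the intervals of Pax7, Myf5 and Myog hold 0 at each time.

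Across the 9 genes, the HIFU arrays lay above all controls for 2 genes at 24 h (22.2%, against 6.84% of all probe sets), Myf6 and Myh8. At 48 h they did so for the same 2 genes, against 10.3% of all probe sets. At 72 h they did so for 7 genes (77.8%, against 8.99%), with Pax7 and Myog the exceptions. Among the 6 regeneration genes the counts were 0, 0 and 4, the last being Myf5, Myod1, Mymk and Myh3. Of these, Myf5 and Myod1 stayed under the low-signal reference, whereas Mymk and Myh3 were above it on all 3 arrays. The differences of Mymk and Myh3 at 72 h, 1.55 and 1.84, were 0.60 and 0.41 with the fiber covariate. With the mean of the HIFU groups, all 9 HIFU arrays lay above all 3 controls for Myf6 and Myh8, against 1.76% of probe sets. In the moderated F test over the 3 times, which called 0.00901% of probe sets, Myf6 had adjusted p = 0.224 and the other 8 genes 0.403 (Myh8) to 0.881 (Myog). The 3 times share the same control samples, so a low or high control moves all of them at once. The median difference over the 6 regeneration genes was 0.28, 0.16 and 0.67 at 24, 48 and 72 h, beside a median over all probe sets of 0, 0.01 and -0.06.

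The change of each gene was also taken relative to that of Myf6 on the same arrays. At 24 h the 6 regeneration genes changed less than Myf6 by 5.53 (Myod1) to 6.32 (Mymk) log2 units, and Mef2c by 4.15. All 7 differences passed the threshold, as did 99.7% of all probe sets. Myh8 minus Myf6 was -1.93 with a 95% confidence interval of -5.37 to 1.52, which did not pass. At 48 h the 6 regeneration genes again passed (adjusted p = 0.021 from the linear model; 95.5% of probe sets). At 72 h Pax7, Myf5, Myog and Myod1 passed, in a comparison where 89.4% of probe sets did. Mymk minus Myf6 was -1.74 at 72 h (95% confidence interval -3.70 to 0.22, adjusted p = 0.0786 from the linear model) and Myh3 minus Myf6 was -1.45 (-3.0 to 0.11, adjusted p = 0.0689). With the mean of the HIFU groups the 6 regeneration genes passed (adjusted p = 0.0024 from the linear model; 99% of probe sets). The counts of the 6 genes are therefore near the background and are no result about these genes. The 48 h count fell from 6 to 0 without control replicate 2, control replicate 3 or HIFU_48h replicate 1 and to 1 without HIFU_48h replicate 2. The 72 h count fell from 4 to 0 without any 1 of the controls or without HIFU_72h replicate 2.

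Between 24 and 72 h, nearly every probe set gained on Myf6. Ordered by its difference between these times, Myf6 stood at place 19497 of 19505 named genes, and 22197 of 22205 probe sets had a difference above its own. At an unadjusted p under 0.05 this was so for 77.5% of all probe sets and for 7 of the 8 other genes, a count near the background. Myf6 was lower at 72 h than at 24 h by a log2 difference of -3.06, while Mymk, Myh3 and Mef2c were 1.52, 1.47 and 1.62 higher and Myog differed by 0.05. None of these 5 differences passed the limma test alone.

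The difference between each gene's change and that of Myf6 passed for 4 of the 8 other genes, in a comparison where 11.6% of all probe sets were called. Myh3, of new fibers, gained 4.52 ± 0.68 (SE) on Myf6 (95% confidence interval 2.97 to 6.08, adjusted p = 0.0155 from the linear model). Mymk, of fusion, gained 4.58 ± 0.85 (2.62 to 6.54, adjusted p = 0.0194), Myog gained 3.1 ± 0.63 (1.64 to 4.57, adjusted p = 0.0247) and Mef2c gained 4.67 ± 1.11 (2.11 to 7.24, adjusted p = 0.0364). For Myod1, Myf5 and Pax7 the gain was 2.91, 3.18 and 2.63 (adjusted p = 0.0551, 0.0551 and 0.0566), and these genes had signals under the reference throughout. Myh8 minus Myf6 was 2.74 (95% confidence interval -0.70 to 6.18, adjusted p = 0.111). Most of each gain is the lower Myf6 itself, which all 8 share, so the 8 differences are not independent of each other. For Myog, which moved by 0.05, nearly all of it is. Which genes passed also turned on their SE: Myog passed with a gain of 3.1 (SE 0.63), while Myf5 did not with 3.18 (SE 1.07). The SE is smaller where a gene varies over the arrays of a group as Myf6 does. The count of 4 beside 11.6% is therefore not read as an excess. The comparison between times was added after the data were seen.

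HIFU_72h replicate 2 had the highest Myog, Mymk, Myh3 and Mef2c, and without it the genes' own differences between 24 and 72 h shrank. They were then 0.79 for Mymk, 0.77 for Myh3, 0.17 for Mef2c and -0.90 for Myog, while that of Myf6 was -4.22 (limma adjusted p = 0.216). Relative to Myf6, 7 of the 8 genes passed without that array, as they did without HIFU_24h replicate 2. The count was 0 without HIFU_24h replicate 1 or 3 or HIFU_72h replicate 1 or 3, where the gain of Myh3 was 4.15, 4.43, 4.16 and 4.42 with adjusted p of 0.075, 0.0746, 0.0757 and 0.0657. It was 3, with Mef2c lost, without control replicate 1 or 2 or HIFU_48h replicate 1 or 3 (adjusted p of 0.0566, 0.0614, 0.0567 and 0.0541). It was 0 with the replicate block. With the fiber median as a covariate 7 genes passed, and the gain of Myh3 was 4.53. The share of all probe sets that passed was not taken under any of these alternatives, so none of these counts is read as an excess. From 24 to 48 h and from 48 to 72 h, 0 of the 8 differences passed in the linear model and 0% of all probe sets did. At an unadjusted p under 0.05 there were 6 and 0 of the 8, beside 55.6% and 1.22% of all probe sets.

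Other genes of the program were read from 5 lists, in which limma called no gene at any time or for the mean of the HIFU groups. At an unadjusted p under 0.05 there were 5, 6 and 9 satellite cell genes, 6, 6 and 8 of fusion and embryonic muscle, 5, 3 and 6 partners and repressors, 22, 24 and 26 mature fiber genes and 4, 3 and 6 of the synapse and denervation, at 24, 48 and 72 h. The lists held 21, 20, 22, 30 and 15 measured genes, and over all probe sets the share at that p was 9.84%, 13.3% and 11.2%. Without control replicate 3 the calls over the 5 lists were 14, 15 and 10, and 22 for the mean, where 1.14%, 1.41%, 0.874% and 1.79% of all probe sets were called. Array weights gave 42, 30, 38 and 59, where 5.03%, 4.25%, 8.31% and 17.1% of all probe sets were called. The 21 measured satellite cell genes had a median difference of 0.37, 0.24 and 0.72 at 24, 48 and 72 h. The HIFU arrays lay above all controls for 5, 6 and 8 of these genes, beside 6.84%, 10.3% and 8.99% of all probe sets. They lay below all controls for 3, 2 and 1 of them. The share of all probe sets lying below was not taken, so these counts are no result about the genes. For the mean of the HIFU groups, Pax3, the paralog of Pax7 that is also a neural crest factor, differed by -2.33, and Spry1, an inhibitor of growth factor signalling, by -2.44 (adjusted p = 0.127 and 0.17). Pax3 read 9.81 and 9.35 in control replicates 1 and 2 and 6.72 in control replicate 3, close to the HIFU range of 5.64 to 6.91. Six4, a homeodomain factor, differed by -0.91 (adjusted p = 0.147). Vcam1, an adhesion molecule of satellite and endothelial cells, differed by 0.20 for the mean of the HIFU groups (adjusted p = 0.882).

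The 20 measured genes of fusion and embryonic muscle had medians of 0.47, 0.51 and 0.55. Des, the muscle intermediate filament gene that smooth muscle also expresses, differed by 3.52 for the mean of the HIFU groups, and Actc1, the cardiac actin of embryonic and regenerating muscle, by 0.95 (adjusted p = 0.127 and 0.125). Cdon, a surface receptor that promotes myogenesis, differed by -3.32 and Jam3, a junction protein, by -1.08 (adjusted p = 0.131 and 0.147). As for Pax3, 2 controls stood apart: Cdon read 14.43 and 13.70 in control replicates 1 and 2, 9.40 in control replicate 3 and 8.64 to 10.15 on the HIFU arrays. The 22 measured partners and repressors of the myogenic factors had medians of 0.16, 0.06 and 0.33. The E-protein genes Tcf3 and Tcf4, whose products pair with Myod1, differed by -0.99 and -1.37, while Vgll2, a muscle cofactor, differed by 1.01 and Snai2, a repressor found in myoblasts and fibroblasts, by 1.48 (adjusted p between 0.143 and 0.242).

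The 30 mature fiber genes had medians of 3.19, 3.26 and 3.49, and 30 of 30 differences were above 0 at each time. The HIFU arrays lay above all controls for 16, 24 and 14 of these genes at the 3 times, beside 6.84%, 10.3% and 8.99% of all probe sets. Acta1, the skeletal actin, differed by 2.24 for the mean of the HIFU groups, and the sarcomere genes Myot, Neb and Ttn by 4.50, 4.43 and 4.36 (adjusted p between 0.0967 and 0.125). At 24 h, 21 of the 30 changed less than Myf6 in the linear model, beside the 99.7% of all probe sets. At 48 h 4 did, beside 95.5% of all probe sets, and at 72 h 3 did, beside 89.4%. The 15 measured genes of the synapse and of denervation had medians of -0.15, 0.03 and 0.18. Musk, the receptor kinase of the neuromuscular junction, differed by 2.68 and Gadd45a, a stress gene induced in denervated fibers, by 1.37 (-0.20 with the fiber covariate), while Ache, the acetylcholinesterase gene, differed by 0.41 and Etv5, an ETS factor of muscle nuclei under the synapse, by -2.60 (adjusted p between 0.126 and 0.789). None of these differences passed the threshold. Without control replicate 3 some of the named list genes did pass for the mean, where 1.79% of all probe sets were called. Those below control were Pax3, Spry1, Cdon, Jam3, Tcf3, Tcf4 and Etv5, and those above it Acta1, Myot, Neb and Ttn. Their limma adjusted p ran from 5e-05 to 0.0388, and the other named list genes did not pass.

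**Figure D4:**
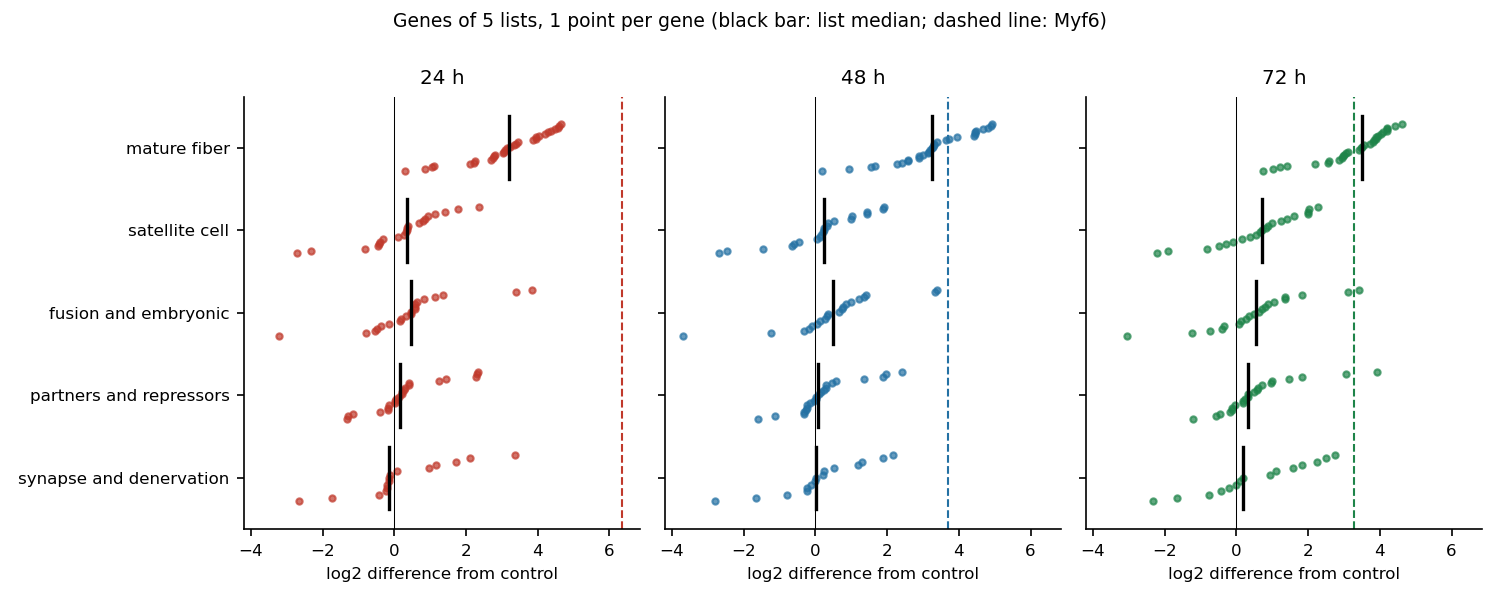
Log2 difference from control (horizontal axis) of each measured gene of 5 lists at 24, 48 and 72 h, with the list median as a black bar and Myf6 as a dashed line. At 24 h the Myf6 line, at 6.35, lies to the right of all points, and at 72 h, at 3.29, it lies within the mature fiber genes.

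HIFU_72h replicate 2 stood apart in the regeneration genes. It had the highest Myog, Mymk, Myh3 and Mef2c of the 12 arrays. Acetylcholine receptor genes that embryonic or denervated fibers express were also highest on it, at 5.50 for Chrng, 8.67 for Chrna1 and 7.75 for Chrnd, beside at most 3.16, 7.02 and 6.15 elsewhere. Chrnb1, which encodes another subunit of the receptor, was not: it read 9.63 on this array, below 9.76 in a control and 9.72 at 24 h. Chrne, of the adult receptor, was 4.04 there and under the reference on all 12 arrays. These receptor genes were picked after their values were seen. The same array had the highest median of the fiber genes (5.51), of the 8 measured fibroblast markers (6.88 above the control mean, against -0.78 to 5.87 elsewhere) and of the 9 measured neutrophil markers (8.73, against -0.25 to 6.67 elsewhere). Neutrophil markers above the reference numbered 2 to 4 in controls and 4 to 9 on HIFU arrays, and fibroblast markers 8 of 8 on every array. The part of these cells in the regeneration gene signals was not tested. Pax7, Myf5 and Myod1 on HIFU_72h replicate 2, at 3.15, 2.86 and 3.83, stayed under the low-signal reference.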

How the data were processed

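The authors deposited 1 log2 signal for each probe set and array (1.75 to 19.93). The log base was read from their range, and the submitters' processing notes name Transcriptome Analysis Console 4.0. Not given in the sources used here are summarization, background correction and genome build. Array medians lay between 5.43 and 5.68, and no further scaling was applied. With medians this close, a change shared by most genes would be largely lost. The number of arrays, 3 per group, limits the precision.

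Names came from the platform annotation and RefSeq (1 symbol for 19572, none for 2634), and a gene with several used the one with the highest mean. A mean per group was fitted to all 12 arrays with limma 3.58.1 in R 4.3.3 (prior degrees of freedom 3.37). Tests were two-sided, with Benjamini-Hochberg adjustment over all 22206 probe sets and a threshold of 0.05. Differences relative to Myf6 came from an ordinary linear model of each probe set minus Myf6 (8 residual degrees of freedom, 22205 tests), chosen after seeing the data because the moderated fit gave an infinite prior; its use between times was also added then. On simulated data for 24 h against control with 22206 probe sets, the limma fit found 8% of changes of 1 log2 unit, 80% at 2, 90% at 4 and 98% at 6. These changes were added to random probe sets with independent noise. The shares do not carry over to muscle genes with a larger SE, such as 1.19 for Myh8 and 1.41 for Mef2c at 24 h. Myh8, at 4.42, was not called there.

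The genes and lists were chosen with earlier results of these data known. Named are the 9 genes, up to 4 genes per list with the smallest F test p, and the 5 genes nearest to Myf6, Myod1 and Mef2c. Others are said to be outside this rule. List genes that no named probe set measured were not analysed here.

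Same-numbered arrays did not deviate together between control and any HIFU group or between 24 h and a later time, so replicate numbers were not treated as pairs there. Between 48 and 72 h all 3 same-numbered pairs had a correlation of deviations above 0 (0.23 to 0.62). So did HIFU_48h replicate 1 with HIFU_72h replicate 3 (0.38) and HIFU_48h replicate 3 with HIFU_72h replicate 1 (0.37). The remaining pairs of these times lay between -0.58 and -0.36. These values do not set same-numbered arrays apart as pairs, and the labels give no pairing. A replicate block changed no call of the 9 genes in that comparison. Alternatives were a replicate block, leaving out the lowest 25% of probe sets, median centring, quantile normalization, array weights, robust estimation with an intensity trend, the fiber median as a covariate, only the groups compared, averaging the probe sets of a gene, moderated variance for the differences from Myf6, and leaving out each array.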

Additional observations from a re-analysis of the deposited data

Results flagged for a closer look

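Vcam1, an adhesion molecule of satellite cells and activated endothelium, differed from control with opposite signs at 24 h and 72 h. All 3 HIFU_24h arrays lay below the control mean, with a log2 difference of -0.82, and all 3 HIFU_72h arrays lay above it, with 2.01. Neither difference from control passed: the smallest limma adjusted p among the satellite cell genes was 0.317 at 24 h and 0.275 at 72 h. The difference of 72 h from 24 h was 2.83 (95% confidence interval 1.70 to 3.95), with limma adjusted p = 0.341, so it did not pass the threshold. The opposite signs themselves were not tested.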

How the results depend on the processing

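Of 3004 values recomputed for 148 results, 2623 kept their direction and their side of the threshold, or stayed within the range allowed for a count, 135 lost the threshold, 89 gained it, 51 changed sign and 106 counts moved. The replicate block is given for completeness, since the samples share only a number. Over 18 same-numbered pairs the correlation of deviations was -0.61 to 0.62 (median -0.13, 4 over 0.1, of which 3 are those of 48 with 72 h). Over 36 differently numbered pairs it was -0.58 to 0.60 (median 0.08, 18 over 0.1). With the block the Myf6 difference at 24 h was 6.35 with limma adjusted p = 0.197. The count of called members at 24 h, 1 as reported, was 0 with the block, quantile normalization (6.31 for Myf6, adjusted p = 0.0558) or the fiber covariate, and 3 with array weights (6.83 for Myf6, adjusted p = 0.000551). With array weights the member counts were 2 at 48 h, 4 at 72 h, 4 for the mean of the HIFU groups and 2 for the F test. For that F test the share of all probe sets was not taken. Calls in the 5 lists then numbered 42, 30, 38 and 59 at 24, 48 and 72 h and for the mean. In the same order, 5.03%, 4.25%, 8.31% and 17.1% of all probe sets were called with these weights. Their estimation gave a convergence warning, so the array weights results need care. With only the groups compared, 1 member was called at 48 h, where 0.027% of all probe sets were called. For these counts, 0 as reported apart from the 24 h members, the cause was not tested.

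The count of members that changed less than Myf6 was 7, 6, 4 and 6 at 24, 48 and 72 h and for the mean. Leaving out the lowest 25% of probe sets, which removes Myf5, Myod1 and Pax7, made it 4, 3, 1 and 3. It was 0 at 48 and 72 h with the replicate block, 0 at 72 h with array weights or only the groups compared, and 0 at 48 h, at 72 h and for the mean with the fiber covariate. The count of members that changed more than Myf6 from 24 to 72 h, 4 as reported, was 0 with the block, 7 with array weights, 7 with the fiber covariate and 8 with moderated variance. For these alternatives the share of all probe sets that passed was not taken, and the cause was not tested.

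Signs changed as follows. Quantile normalization gave -0.094 for Mymk at 24 h and, at 48 h, -0.0037 for Myog and -0.10 for Pax7. Median centring gave -0.04 for Mymk at 24 h and -0.037 for Pax7 at 48 h. Array weights gave -0.016 for Pax7 at 48 h, -0.077 for Myog at 72 h and -0.44 for Myh8 minus Myf6 at 48 h. The fiber covariate turned large differences too, though its comparisons with control reach beyond fiber levels that HIFU and control arrays share. With it, the 24 h differences were -0.38 for Myog, -0.91 for Mymk, -1.04 for Myh3 and -1.80 for Mef2c. At 48 h they were -0.34 for Myod1, -0.87 for Myog, -0.033 for Pax7, -0.72 for Mymk, -0.52 for Myh3 and -1.42 for Mef2c, and at 72 h -0.35 for Myog and -0.24 for Mef2c. For the mean they were -0.53 for Myog, -0.34 for Mymk, -0.38 for Myh3, -1.15 for Mef2c, -0.28 for Vcam1, -0.38 for Ache and -0.20 for Gadd45a. Relative to Myf6 it gave -0.80 at 48 h and -0.66 at 72 h for Myh8 and -1.66 at 72 h for Mef2c.

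Leaving out each of the 12 arrays gave 0 to 2 called members at 24 h, 0 to 1 at 48 h, 0 to 1 at 72 h, 0 to 2 for the mean and 0 to 1 for the F test. In these refits 0% to 1.14% of all probe sets were called at 24 h and 0% to 1.41% at 48 h. The shares were 0.0045% to 0.874% at 72 h and 0.0045% to 1.79% for the mean, and none was taken for the F test. Without control replicate 3, calls in the 5 lists rose from 0 to 14, 15, 10 and 22, and the lowest counts over the arrays were 0. The share of all probe sets called without that array was 1.14%, 1.41%, 0.874% and 1.79%. Members that changed less than Myf6 numbered 7 to 8, 0 to 6, 0 to 6 and 6 to 7, and those that changed more from 24 to 72 h 0 to 7. For these 2 counts the share of all probe sets that passed was not taken. Signs changed for Mymk at 24 h (-0.15 to 0.16) and 48 h (-0.19 to 0.56) and for 48 h against 24 h (-0.21 to 0.54), for Myog at 48 h (-0.28 to 0.38) and 72 h (-0.29 to 1.14), for Pax7 at 24 h (-0.043 to 0.27), 48 h (-0.075 to 0.08) and for the mean (-0.13 to 0.024), and for Ache for the mean (-0.073 to 1.08). They also changed for Myf6 at 72 h against 48 h (-1.58 to 0.42) and for Myh8 minus Myf6 at 48 h (-1.08 to 2.33), at 72 h (-0.94 to 2.47) and for the mean (-1.90 to 1.51). An intensity trend was not run relative to Myf6, since that model uses no variance prior. The 3 arrays per group and the low signals of Pax7, Myf5 and Myod1 limit what could be detected.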
